A study of Mus musculus with 6 samples.

Results

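The miRNAs described here come from hairpins of the Rian and Mirg segments of the Dlk1-Dio3 domain, a large imprinted region of mouse chromosome 12. Members were chosen by locus and name: every entry of the deposited table that is an arm of 1 of 39 listed hairpins was taken, except miR-409-3p, which was left out by the selection rule. This gave 53 of the table's 1081 entries, from 32 hairpins. The other 7 hairpins contributed no entry. For 6 of them no arm was listed (miR-380, miR-1197, miR-376c, miR-654, miR-539 and miR-412), and the hairpin of miR-409 is the seventh.

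The libraries were made from small RNA of kidney inner medulla, where collecting ducts run to the tip of the papilla, taken from mice aged 1 month. There were 3 control libraries, whose alleles the labels do not spell out, and 3 libraries labelled DicerAQP2Cre+, from mice that lack Dicer1 in cells expressing Aqp2, which encodes a water channel of principal cells in the collecting duct. The tissue was a bulk extract, so it also holds cells that the deletion does not target, and a change in the number of cells of a type cannot be told apart from a change in RNA per cell. Between 2934851 and 7614853 reads per library were assigned to miRNAs, fewest in DicerAQP2Cre+ replicate 2. Columns were matched to the DicerAQP2Cre+ libraries by an inference from their short names, and every direction below rests on it.

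In the Dlk1-Dio3 domain the noncoding genes Meg3, Rian and Mirg are transcribed from the maternal chromosome, and their introns and exons carry many small RNA genes, while Dlk1, Rtl1 and Dio3 are expressed from the paternal chromosome. The miRNAs of the segment are best known from embryo, placenta and brain, where miR-134, miR-329 and miR-381 act on dendrite growth. Each hairpin is cut by Drosha and then by Dicer, and either arm, 5p or 3p, can be loaded as the mature miRNA. A miRNA finds its targets mainly by its seed, bases 2 to 8 from the 5′ end.

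In the GRCm38 annotation (GENCODE M21) 2 of the 39 hairpins, mmu-miR-341 and mmu-miR-370, lay in introns of Rian. A run of 24, from mmu-miR-379 to mmu-miR-539, lay between Rian and Mirg and outside both. The last 13, from mmu-miR-382 to mmu-miR-3072, lay in Mirg, 9 of them overlapping an exon of at least 1 transcript and 4 in introns. The submitters' processing notes name mm9, so no coordinates are printed.

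The mature sequences that the results turn on are given 5′ to 3′ from RefSeq (GRCm38.p6), with the seed in capitals. RefSeq sequences were matched for 51 of the 53 entries and 17 of the 18 tested ones. The first 2 belong to the members that passed the test, and the next 3 to the most abundant members.

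miR-341-3p: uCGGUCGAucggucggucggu

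miR-485-3p: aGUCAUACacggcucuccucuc

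miR-541-5p: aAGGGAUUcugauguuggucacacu

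miR-411-5p: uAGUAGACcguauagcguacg

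miR-667-3p: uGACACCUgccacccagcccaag

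The following are the members with the highest fold changes that did not pass, both from the run between Rian and Mirg.

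miR-666-5p: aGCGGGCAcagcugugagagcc

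miR-543-3p: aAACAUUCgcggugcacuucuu

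A last set shows how members relate to each other and to miRNAs from elsewhere in the genome. miR-300-3p and miR-381-3p were identical at 19 of 22 positions. From miR-300-3p to miR-381-3p, counting from the 5′ end, the changes were G4A, U21G and C22U, so that their seeds differ at 1 base. miR-410-3p shares its seed with miR-344d-3p, and miR-377-5p shares its seed with miR-672-5p, which are not members.

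miR-300-3p: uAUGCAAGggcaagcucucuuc

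miR-381-3p: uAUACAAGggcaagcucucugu

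miR-410-3p: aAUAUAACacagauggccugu

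miR-344d-3p: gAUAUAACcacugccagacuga

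miR-377-5p: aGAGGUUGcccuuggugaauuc

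miR-672-5p: uGAGGUUGguguacuguguguga

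The 17 tested members with a sequence had 17 distinct seeds. They are neighbours in the genome rather than 1 family by seed.

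The segment was expressed at a low level, and 1 member made up most of it. Values are normalized reads, the deposited counts divided by a size factor per library. miR-541-5p had a mean of 1106 over the 6 libraries, rank 90 of 1081 entries, and held 68.4% of the members' summed mean. The next members, miR-411-5p, miR-667-3p and miR-485-3p, had means of 103, 92.5 and 59.7. Of the 53 entries 18 reached a mean of 5 normalized reads and were tested, 9 of them 5p and 9 of them 3p arms. The other 35 had between 1 and 29 recovered reads in all libraries together, and 9 entries had reads in 1 library only.

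Summed over all 53 entries, the members stood at 1308, 966 and 1387 normalized reads in the 3 controls (replicates 1, 2 and 3 here and in each list of values below), and at 1926, 1536 and 2584 in DicerAQP2Cre+ samples. All 3 DicerAQP2Cre+ sums were above the highest control. The means were 1220 ± 224 and 2015 ± 529 (SD, n = 3 each), a ratio of 1.65. Without miR-541-5p the means were 368 ± 74.1 and 655 ± 118, a ratio of 1.78, so the difference did not rest on the most abundant member. Of all miRNA reads the members held 0.0247 ± 0.00466% in controls and 0.0351 ± 0.00889% in DicerAQP2Cre+ samples. On this scale the groups overlapped: control replicate 3 had 0.0291% and DicerAQP2Cre+ replicate 2 had 0.0267%. These sums are a description and were given no test.

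**Figure D1:**
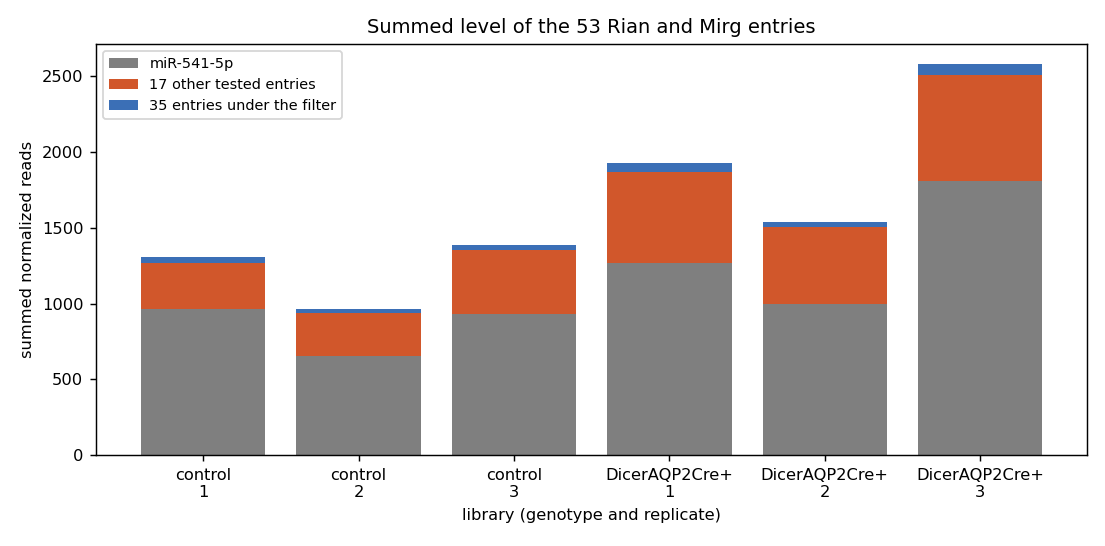
Summed normalized reads of the 53 Rian and Mirg entries (y axis) in each of the 6 libraries (x axis), split into miR-541-5p, the 17 other tested entries and the 35 entries under the filter. miR-541-5p is the largest block in every bar, and the 3 DicerAQP2Cre+ bars, from 1536 to 2584, are above the highest control bar of 1387.

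The comparison of genotypes asked which of these miRNAs differ when Dicer1 is lacking in Aqp2-expressing cells. 2 members rose, miR-341-3p of Rian and miR-485-3p of Mirg, by 3.02-fold and 2.88-fold in the mean, and 0 fell. The test was limma on log2(value + 1) over all 461 entries with a mean of at least 5, with calls made under 0.05 after Benjamini-Hochberg adjustment. Over all entries 3.47% were called higher and 4.99% lower, against 2 and 0 of the 18 members. edgeR and DESeq2, run on the recovered reads, each called these 2 members higher and 0 lower, where DESeq2 gave an adjusted p for 13 of the 18. Over all entries edgeR called 4.12% higher and 4.99% lower, and DESeq2 6.29% and 6.72%. By limma 10 of the 18 had an unadjusted p under 0.05, all with fold changes above 0, where 13% of all entries did. That count was 5 with all libraries set to equal totals, and 5 to 10 in limma leaving out 1 library.

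Fold changes of the remaining members lay mostly above 0 without passing. 17 of the 18 log2 fold changes were above 0, with a median of 0.88 and a range of -0.28 to 1.77. Over all 461 entries 49.5% were above 0, and the median was -0.01. In 11 members every DicerAQP2Cre+ library was above every control, a pattern found in 15.6% of all entries, and 0 members had the reverse pattern, found in 18% of all entries. These counts do not cover all members. 3 of the tested ones, miR-666-5p, miR-543-3p and miR-410-3p, had a control mean under 5 and passed the filter through their DicerAQP2Cre+ values. For the 15 others the median was 0.81, and 14 of their fold changes were above 0. Of these 15, 8 had every DicerAQP2Cre+ library above every control, and 8 had an unadjusted limma p under 0.05. Among the 35 entries too low to test, the DicerAQP2Cre+ mean was the higher one in 21 and the lower one in 14. With all libraries set to equal totals the median of the tested members was 0.68 and that of all entries -0.21. On that scaling 14 entries were called higher and 48 lower, against 16 and 23, with 2 and 0 members among them.

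**Figure D2:**
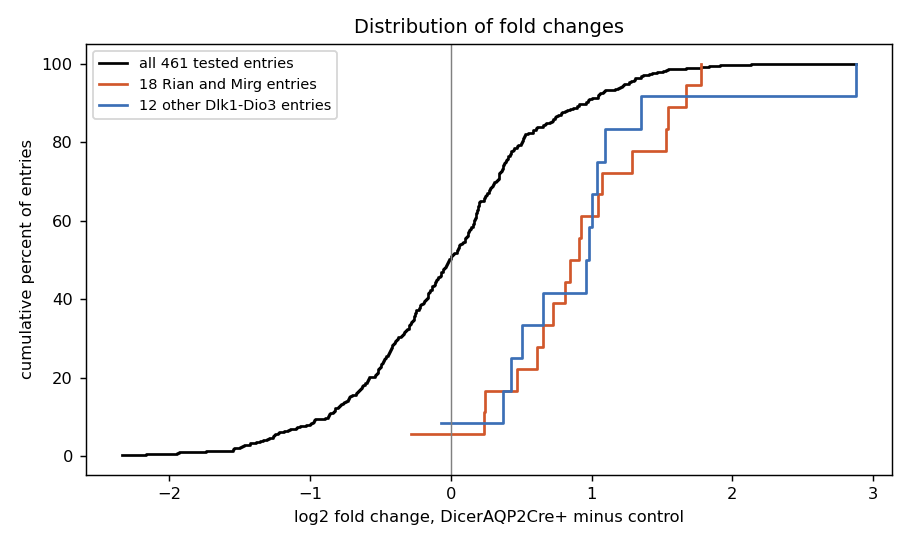
Cumulative percent of entries (y axis) against log2 fold change, DicerAQP2Cre+ minus control (x axis), for all 461 tested entries, the 18 Rian and Mirg entries and 12 other Dlk1-Dio3 entries. The curve of the 18 lies to the right of the curve of all entries over most of its range, with medians of 0.88 and -0.01, and reaches from -0.28 to 1.77.

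The member with the smallest p in limma and edgeR was miR-341-3p of Rian. Its values were 15.4, 12.6 and 9.68 normalized reads in controls and 40.7, 35.3 and 37.8 in DicerAQP2Cre+ samples. The groups were far apart and each was narrow, 12.5 ± 2.85 against 37.9 ± 2.71 (SD, n = 3). The log2 fold change was 1.54 ± 0.32 (SE; limma adjusted p = 0.0162, edgeR 0.0101, DESeq2 0.00151). These values rest on 10 to 55 recovered reads per library. The other arm, miR-341-5p, had 1 read in the whole data set.

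miR-370-3p, from the second Rian hairpin, had 6.92, 12.6 and 16.5 in controls and 32.5, 23.5 and 20.4 in DicerAQP2Cre+ samples. The groups did not overlap, but the controls spread more widely than those of miR-341-3p. It did not pass, with a limma adjusted p of 0.116 for a log2 difference of 1.08 ± 0.40.

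Between Rian and Mirg 7 entries were tested and 0 passed in limma or edgeR, with a median log2 fold change of 0.91. An unadjusted limma p under 0.05 was found for 3, where 13% of all entries had one with a fold change above 0. Among the 3 were miR-666-5p and miR-543-3p, which passed the filter through their DicerAQP2Cre+ values and also enter the median. DESeq2 passed 0 as well, but gave no adjusted p for miR-666-5p and miR-543-3p. miR-411-5p, the most abundant of them, stood at 71.5, 81.8 and 126 in controls and 74.0, 96.0 and 170 in DicerAQP2Cre+ samples. Its groups overlapped over most of their range. The log2 fold change was 0.24 ± 0.35 (limma adjusted p = 0.713), and it was -0.10 without DicerAQP2Cre+ replicate 3.

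miR-667-3p had values of 66.9, 36.9 and 91.0 in controls and 112, 88.2 and 159 in DicerAQP2Cre+ samples. The groups overlapped through control replicate 3 and DicerAQP2Cre+ replicate 2. The log2 fold change was 0.93 ± 0.36 (limma adjusted p = 0.130).

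miR-666 was low in controls in both arms. miR-666-5p had 0.769, 1.57 and 3.87 normalized reads in controls and 11.8, 5.88 and 7.15 in DicerAQP2Cre+ samples. In reads this was 1, 2 and 4 against 16, 3 and 7. Every DicerAQP2Cre+ value was above every control, with a log2 fold change of 1.67 ± 0.57, but the entry did not pass (limma adjusted p = 0.0963, edgeR 0.0591). At a threshold of 0.1, under which limma called 6.51% of all entries higher, it would have been the third member. miR-666-3p, below the filter, showed 0.769, 1.57 and 0.968 against 5.92, 7.84 and 4.09, again without overlap and with no test.

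miR-543-3p had a log2 fold change of 1.77 ± 0.71 in limma (adjusted p = 0.135). This was above that of miR-666-5p, while edgeR gave 2.13 and 2.15 for the 2 entries in that order, and without control replicate 1 limma gave 1.12 and 1.34. It had 0, 1.57 and 4.84 normalized reads in controls and 13.3, 5.88 and 5.11 in DicerAQP2Cre+ samples, from 0 to 18 reads per library. A library with 0 reads allows up to 3, which is 2.31 normalized reads in control replicate 1, the library without a read of it. With a mean of 5.12 it was also the member just above the filter. Just below it were miR-299a-5p and miR-299b-5p, with a mean of 4.34 each. These come from opposite strands of 1 site and were listed with identical values, so their reads were shared. They had 3.08, 2.36 and 1.94 in controls and 9.62, 3.92 and 5.11 in DicerAQP2Cre+ samples.

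The near-identical pair miR-300-3p and miR-381-3p had means of 21.9 and 14.2. miR-300-3p had 17.7, 19.7 and 11.6 in controls and 28.1, 21.6 and 32.7 in DicerAQP2Cre+ samples, without overlap (log2 fold change 0.73 ± 0.34, limma adjusted p = 0.199). For miR-381-3p the groups overlapped, with 6.15, 14.1 and 16.5 against 17.8, 17.6 and 13.3 (0.47 ± 0.42, adjusted p = 0.517). Whether reads were split between the 2 could not be examined from the table. miR-329-5p had the remaining fold change of this run, 0.91 ± 0.45, with DicerAQP2Cre+ replicate 1, at 7.40, inside the control range of 5.81 to 7.86.

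**Figure D3:**
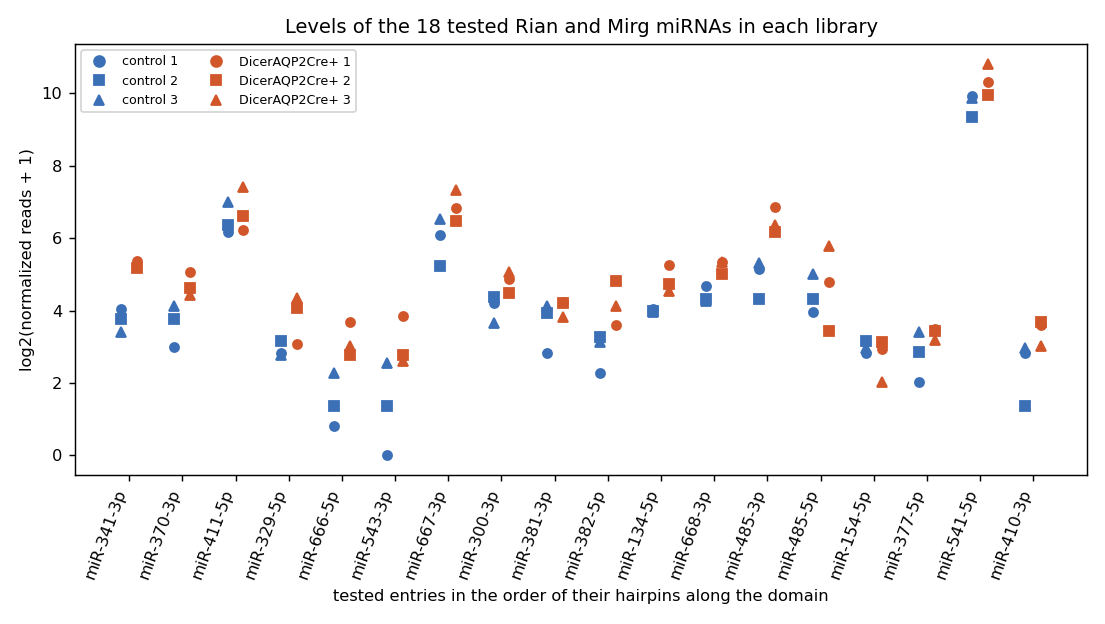
Level of each tested entry as log2(normalized reads + 1) (y axis) in the order of the hairpins along the domain (x axis), with 1 point per library, controls in blue, DicerAQP2Cre+ in red, and the symbol's shape marking the replicate. In 11 of the 18 entries, miR-341-3p and miR-485-3p among them, every DicerAQP2Cre+ point is above every control point. This pattern was found in 15.6% of all 461 tested entries. The 11 include miR-666-5p, miR-543-3p and miR-410-3p, which passed the filter through their DicerAQP2Cre+ values. miR-411-5p, miR-485-5p and miR-154-5p show mixed groups, and miR-541-5p lies far above the other entries.

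Mirg gave 9 tested entries from 8 hairpins, with a median log2 fold change of 0.81. miR-485-3p passed. Its values were 34.6, 18.9 and 38.7 in controls and 115, 70.5 and 80.7 in DicerAQP2Cre+ samples. The lowest DicerAQP2Cre+ library was well above the highest control, 30.7 ± 10.5 against 88.6 ± 23.1 (SD, n = 3). The log2 fold change was 1.53 ± 0.34 (limma adjusted p = 0.0172, edgeR 0.0135, DESeq2 0.00048), from 24 to 155 reads per library.

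The opposite arm did not follow as closely. miR-485-5p stood at 14.6, 18.9 and 31.0 in controls and 26.6, 9.80 and 54.1 in DicerAQP2Cre+ samples. The DicerAQP2Cre+ group held both the lowest and the highest value, with only 5 reads behind the lowest. The log2 fold change was 0.24 ± 0.55 (limma adjusted p = 0.797), and -0.31 without DicerAQP2Cre+ replicate 3.

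miR-485 was the only member hairpin with both arms past the filter, so it was the only one whose arm ratio could be tested. The 3p arm took 70.3% (exact Clopper-Pearson 95% interval 57.6 to 81.1) and 55.6% (43.4 to 67.3) of the hairpin's reads in control replicates 1 and 3, and in replicate 2 both arms had 24 reads (35.2 to 64.8%). In DicerAQP2Cre+ samples it took 81.2% (74.9 to 86.4), 87.8% (73.8 to 95.9) and 59.8% (51.0 to 68.3). DicerAQP2Cre+ replicates 1 and 2 were above all controls, and replicate 3 was inside the control range. The log2 ratio of 3p to 5p differed by 1.29 ± 0.52 between genotypes, which did not pass in limma over the 112 hairpins with both arms tested (adjusted p = 0.232). Of all 112 hairpins 3.57% were called. These intervals, like the floor of 3 reads, cover counting error only and leave out the spread between mice. They treat reads as independent, and PCR copies are not independent molecules, so they can be too narrow.

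**Figure D4:**
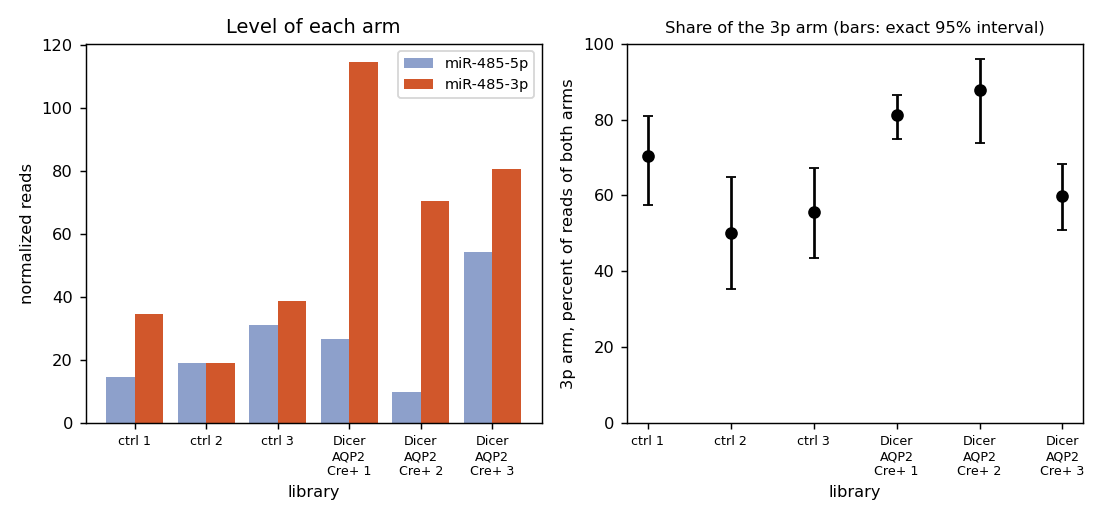
Both arms of miR-485 in each library: normalized reads per arm (left, y axis) and the 3p arm's percent of the reads of both arms with its exact 95% interval (right, y axis). The 3p arm is higher in all 3 DicerAQP2Cre+ libraries, while the 5p arm is lowest in DicerAQP2Cre+ replicate 2 and highest in replicate 3, where the 3p share of 59.8% lies within the control range.

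miR-541-5p, in an intron of Mirg, had 965, 656 and 935 normalized reads in controls and 1271, 999 and 1811 in DicerAQP2Cre+ samples. Every DicerAQP2Cre+ library was above every control, but the nearest pair, 965 and 999, was close. With 510 to 1773 reads per library its depth was the best of the segment, and its log2 fold change of 0.65 ± 0.27 still did not pass (limma adjusted p = 0.140, edgeR 0.0959, DESeq2 0.0780).

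miR-134-5p, from an exonic hairpin of Mirg and a regulator of dendritic spines in neurons, had 15.4, 14.9 and 14.5 in controls and 37.0, 25.5 and 22.5 in DicerAQP2Cre+ samples. Controls were within 1 normalized read of each other and all DicerAQP2Cre+ values were higher, with a log2 difference of 0.85 ± 0.33 (limma adjusted p = 0.130). miR-668-3p, studied in ischemic kidney injury for its effect on mitochondria, had 24.6, 18.9 and 18.4 against 39.2, 31.4 and 39.8, again without overlap (0.81 ± 0.30, adjusted p = 0.116).

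miR-382-5p, studied in the response of kidney tubule cells to TGF-beta, had 3.85, 8.65 and 7.74 in controls and 11.1, 27.4 and 16.3 in DicerAQP2Cre+ samples. The groups did not overlap, and DicerAQP2Cre+ replicate 2 was the highest (log2 fold change 1.29 ± 0.46, limma adjusted p = 0.109).

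The last 3 Mirg entries were low. For miR-410-3p the log2 difference was 1.05 ± 0.54 (limma adjusted p = 0.234), from 6.15, 1.57 and 6.77 in controls to 11.1, 11.8 and 7.15. For miR-377-5p it was 0.61 ± 0.47 (adjusted p = 0.428), from 3.08, 6.29 and 9.68 to 10.4, 9.80 and 8.17. miR-154-5p was the only tested member with a fold change below 0. It had 6.15, 7.86 and 6.77 in controls and 6.66, 7.84 and 3.06 in DicerAQP2Cre+ samples, where replicate 3 alone was below the controls. Its log2 fold change of -0.28 ± 0.47 (limma adjusted p = 0.743) was 0.06 without that library.

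**Figure D5:**
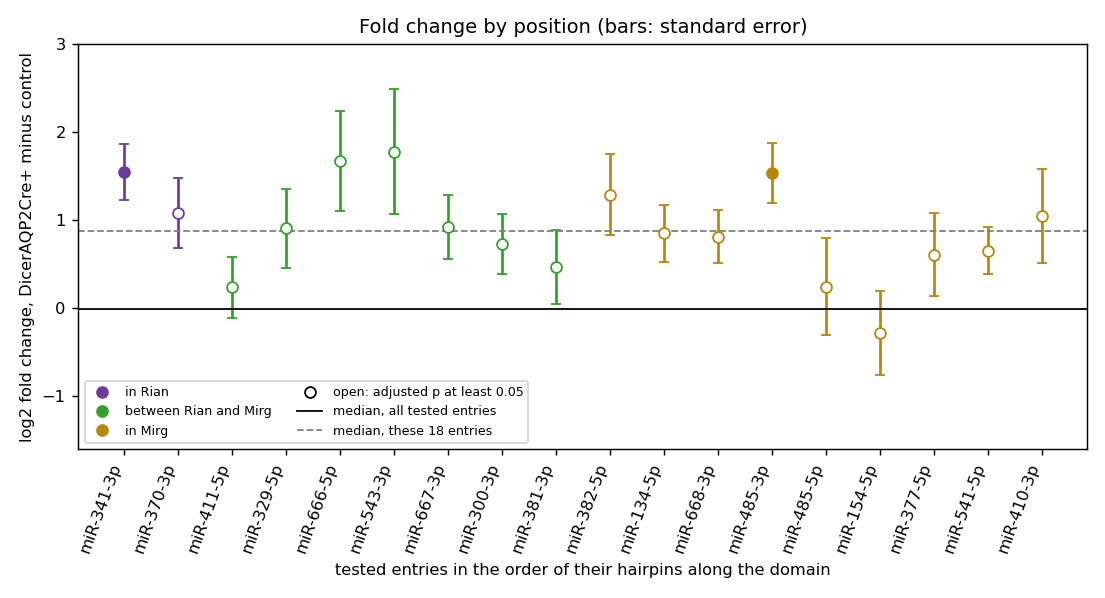
Log2 fold change of each tested entry, DicerAQP2Cre+ minus control, with its standard error (y axis), in the order of the hairpins along the domain (x axis) and coloured by position in Rian, between Rian and Mirg, or in Mirg. The 2 filled points are miR-341-3p and miR-485-3p, the members that passed, and the lines mark the medians of 0.88 for these entries and -0.01 for all tested entries.

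Seed groups of tested members that reach beyond the segment showed how much of a seed the members supplied. miR-410-3p, with 4.83 ± 2.84 in controls and 10.0 ± 2.49 in DicerAQP2Cre+ samples, made up 40.7% and 57.5% of the normalized reads carrying its seed. The rest came from miR-344d-3p, at 6.78 ± 2.0 and 6.91 ± 2.86 (log2 fold change -0.02 ± 0.48, limma adjusted p = 0.986), and from miR-344e-3p, which was below the filter. The shares of miR-410-3p rest on 8, 2 and 7 reads in controls and 15, 6 and 7 in DicerAQP2Cre+ samples, and were not tested. This member passed the filter through its DicerAQP2Cre+ values. miR-377-5p supplied 7.12% and 7.24% of its seed, the rest being miR-672-5p, at 82.8 ± 5.32 and 121 ± 19.6 (0.53 ± 0.25, adjusted p = 0.192). The other 15 tested members with a sequence shared their seed with no other entry that had one. Among all 51 sequences there were 47 seeds, and the members that shared one with each other, such as miR-379-3p and miR-411-3p, were all below the filter.

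Both arms were listed for 21 of the hairpins, and the 5p arm had more reads in 13 and the 3p arm in 8. The ratio was extreme for miR-667 (4 reads of the 5p and 581 of the 3p arm) and miR-411 (642 and 11), and close to even for miR-494 (6 and 7). Among tested entries the 9 3p arms, which include both called ones, had a median log2 fold change of 1.05, and the 9 5p arms one of 0.65. The 3p arms include miR-543-3p and miR-410-3p, and the 5p arms miR-666-5p, which passed the filter through their DicerAQP2Cre+ values. Medians without these entries were not computed, and the difference between arms was not tested.

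Within a genotype no library was the highest for all members. Among the DicerAQP2Cre+ libraries replicate 3 was the highest for 7 of the 18 tested members and the lowest for 7 others. It was highest for miR-541-5p, miR-667-3p, miR-411-5p and miR-485-5p, and lowest for miR-370-3p, miR-134-5p and miR-410-3p. Over all 461 entries it was highest in 38.2% and lowest in 39.7%. Among controls, replicate 1 was the lowest for 9 of the 18 and replicate 3 the highest for 10, against 36.7% and 30.6% of all entries. The median deviation of the members from their control mean was -0.11, 0.01 and 0.43 on the log2 scale in controls and 0.83, 0.70 and 1.05 in DicerAQP2Cre+ samples. Each DicerAQP2Cre+ library thus had a median above that of every control, though for the members that passed the filter only. Those include the 3 that passed it through their DicerAQP2Cre+ values, and medians without them were not computed. Over all 461 entries the same medians were 0.01, 0.01 and -0.02 in controls and 0.03, -0.05 and -0.01 in DicerAQP2Cre+ samples.

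Of the hairpin that the selection left out in part, miR-409-3p had 44.6, 43.2 and 49.4 in controls and 104, 99.9 and 158 in DicerAQP2Cre+ samples, and rose (log2 fold change 1.35 ± 0.27, limma adjusted p = 0.0148). With it, 24 other Dlk1-Dio3 entries were in the table, of which 12 were tested, 11 had a fold change above 0 and 3 rose, miR-409-3p, miR-434-3p and miR-1247-5p. Over all 461 tested entries 49.5% had a fold change above 0, and limma called 3.47% higher. The median of these 12 entries, 0.97, stood beside 0.88 for the members, and the difference between these sets was not tested.

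Of the lists of cell type markers, some differed between genotypes in the same libraries and others did not. The 9 stromal entries, from smooth muscle, pericytes and fibroblasts, summed to 23401 to 24725 normalized reads in controls and 27753 to 40289 in DicerAQP2Cre+ samples. All 3 DicerAQP2Cre+ sums were above the highest control, as for the members. Among these 3 libraries the stromal sum was lowest in replicate 3, where the members' sum, held mostly by miR-541-5p, was highest. Taken singly, 7 of the 18 tested members were highest in that replicate and 7 were lowest there. Of 8 stromal entries tested 2 rose, miR-214-3p and miR-145a-5p. The 6 epithelial entries summed to 29976 to 31902 and 21164 to 37788, and 5 of the 6 fell, the 3p arms of the miR-200 family. The remaining one, miR-205-5p, was tested and did not pass. The epithelial sums did not separate the groups, since DicerAQP2Cre+ replicate 3, at 37788, was above every control. Of 9 neural markers 6 were in the table, all but miR-9-3p, miR-137-3p and miR-153-3p, and summed to 872 to 1066 in controls and 452 to 496 in DicerAQP2Cre+ samples. Of the 4 neural entries tested 1 fell, miR-9-5p. The endothelial sums were 961 to 1229 and 830 to 1245, the leukocyte sums 12167 to 35214 and 15922 to 38104, the erythroid sums 84625 to 147223 and 66039 to 98718, and the striated muscle sums 32.9 to 48.7 and 26.6 to 47.0. Of the endothelial, leukocyte, erythroid and striated muscle entries 2, 3, 2 and 1 were tested, and 0 passed. Over all 461 tested entries limma called 3.47% higher and 4.99% lower. No listed marker in the table was at 0 in every library, and the part of these cell types in the members' values was not tested.

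The 15 hairpins represented only below the filter added little: all 35 untested entries, which include other arms of tested hairpins, summed to 43.1, 25.9 and 32.9 normalized reads in controls and 59.9, 33.3 and 75.6 in DicerAQP2Cre+ samples. The groups overlapped, and DicerAQP2Cre+ replicate 3 was the highest. miR-379-5p, from the first hairpin of the run before Mirg, had 6.15, 2.36 and 5.81 in controls and 0, 1.96 and 8.17 in DicerAQP2Cre+ samples, where the spread covered the whole control range. miR-323-3p was without a read in all controls and had 2.22, 0 and 8.17 in DicerAQP2Cre+ samples. Both were chosen after their values were seen. The number of members with a read was 35, 35 and 34 in controls and 37, 28 and 44 in DicerAQP2Cre+ samples, fewest in the library with the fewest reads.

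The calls of miR-341-3p and miR-485-3p depended on single libraries in limma and edgeR and not in DESeq2. Without control replicate 2 neither passed in limma (adjusted p = 0.0792 and 0.0966), nor without control replicate 3 (0.0748 and 0.0635), and miR-485-3p was also lost without DicerAQP2Cre+ replicate 1 (0.0543). Their log2 fold changes over those 3 fits stayed between 1.22 and 1.72. DESeq2 called both in each of the 6 fits that leave out 1 library, with adjusted p from 0.000636 to 0.0495. edgeR called neither without control replicate 2 or control replicate 3, and lost miR-485-3p without control replicate 1 (adjusted p = 0.0507). Without control replicate 2, and also without control replicate 3, limma and edgeR each called 0 of all 461 entries, so these losses were not particular to the members.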

How the data were processed

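Values are signal values that the authors deposited as normalized counts, 1 row per mature miRNA and 1 scaling factor per column, as read from the values: 100% of them were whole multiples of the column's smallest value above 0 within 0.01 read (largest deviation 0.00204). FastQC 0.11.3, DESeq2 and build mm9 are listed in the submitters' processing notes. Which aligner, counter and miRNA release were used was not given in the sources used here. Columns CK01 to CK03 were read as DicerAQP2Cre+ replicates 1 to 3.

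Entries with a mean of at least 5 were tested (461 of 1081) on log2(value + 1) by two-sided limma with a trend (limma 3.58.1, R 4.3.3) and without a replicate block; adjustment was over all of them. Such fold changes understate low entries. The series design names separate mice. edgeR 4.0.16 (quasi-likelihood) and DESeq2 1.42.0 were run on the recovered reads. The arm ratio was tested likewise over 112 hairpins. Scripts were tested on simulated data.

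Named entries were those called, those of hairpins with both arms tested, the 8 most abundant, the 3 highest and 3 lowest fold changes, those around the filter, miR-409-3p and sharers of a seed; the other tested members named were chosen after their values were seen. Members and lists were chosen with earlier results of these data known. Alternatives are given in the closing section.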

Additional observations from a re-analysis of the deposited data

How the results depend on the processing

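Against 2 members higher, the count was 1 with a mean filter of 50, which tests 4 members and leaves out miR-341-3p. Without a trend it was 1, miR-341-3p (limma adjusted p = 0.0377), while miR-485-3p did not pass (0.0518). At a threshold of 0.1 the count was 3. Leaving out 1 library at a time it was 0 to 2 in limma. In fits chosen after seeing the data it was 0 to 6 in edgeR and 2 to 3 in DESeq2. Both miR-341-3p and miR-485-3p were among those called in every such DESeq2 fit, but not in every limma or edgeR fit. The 6 in edgeR came without DicerAQP2Cre+ replicate 3, where edgeR called 14.5% of all entries higher. Without control replicate 2 or 3 limma called 0 entries, member or not, with 5 and 8 members higher at an unadjusted p under 0.05. The cause was not tested. Over all entries, against 16 higher and 23 lower, limma called 7 and 11 without a trend, 14 and 48 with equal totals, 30 and 41 at an adjusted p under 0.1, and from 0 and 0 to 43 and 62 leaving out 1 library, and DESeq2 called 29 and 31. No member was called lower in any of these fits. The median log2 fold change of 0.88 was 0.42 with no filter, which adds 35 entries with few reads, and 0.68 to 1.04 elsewhere. The ratio of summed reads was 1.42 with equal totals. Signs were reversed without DicerAQP2Cre+ replicate 3 for miR-411-5p (-0.10 in limma, -0.06 in edgeR, -0.12 in DESeq2), miR-154-5p (0.06, 0.10 and 0.06) and miR-485-5p (-0.31 in limma, -0.13 in DESeq2), of which none had passed. Over limma's fits that leave out 1 library these went up to 0.49 for miR-411-5p, down to -0.50 for miR-154-5p and up to 0.86 for miR-485-5p, and in edgeR up to 0.61 for miR-411-5p and 0.94 for miR-485-5p. The arm ratio was called in 4 of 112 hairpins, in 9 with a pseudocount of 5, which included miR-485 (adjusted p = 0.0352), in 7 with the replicate block, and in 0 to 8 leaving out 1 library. The replicate numbers did not pair the libraries (correlations of -0.06, 0.01 and 0.06 over 461 entries), and with the replicate block 2 members were higher and 0 lower. Under 20 reads were behind 14 of the 18 tested members in DicerAQP2Cre+ replicate 2, the library with the fewest reads.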
